A study of Mus musculus with 72 samples.

Results

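The genes described are 49 DNA replication and mitosis genes of the mouse. They were chosen by symbol, for textbook roles in the cell cycle, when earlier results of these data were known, and all 49 were found among the 56691 gene rows of the count table. Of these, 22 act in or before DNA synthesis (G1/S control, origin licensing, the replication fork and deoxynucleotide supply), and 27 act in mitosis (cyclins and kinases, the spindle checkpoint, the centromere, the spindle midzone and chromosome structure). All 49 passed the filter on low counts. RNA came from mouse early secondary ovarian follicles, an oocyte within layers of granulosa cells, cultured for 24 h. Some cultures received follicle-stimulating hormone (FSH) and others none. The hormone was FSH21, the hypoglycosylated form, or FSH24, the fully glycosylated form, and the question was how the glycoform and its dose bear on the follicle's transcripts. FSH21 and FSH24 at 10 ng/ml are set against the untreated cultures that share their numbers 2, 3 and 4, and FSH21 and FSH24 at 1 ng/ml against the untreated cultures numbered 1, 5 and 6. Each of the 6 groups held 3 libraries. All cultures shared a medium with bovine serum albumin, fetuin and an insulin-transferrin-selenium supplement. Strain, age of the mice and the number of follicles in a library are not stated in the labels. The labels call the libraries biological replicates and name no animals, so the p-values speak only for the variation among those libraries, some of which may be technical.

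The 18 libraries held between 17.5 M and 22.5 M counts (M, 1e6 counts), and levels are given as CPM, counts scaled to a common library total with edgeR's TMM factors. Granulosa and oocyte transcripts were abundant in every library: Inha, the inhibin alpha subunit of granulosa cells, averaged 3168 CPM and Gdf9, an oocyte growth factor, 1064 CPM. Markers of other cell types were low in part: 6 immune genes summed to at most 3.77 CPM in any library, while 10 stromal genes summed to between 3043 and 5385 CPM. The 18 oocyte genes summed to 5891 to 6657 CPM with FSH21 at 10 ng/ml and 5867 to 6352 CPM with FSH24, against 6745 to 7085 CPM without FSH, so these ranges did not overlap. The untreated cultures numbered 1, 5 and 6 held 5551 to 6537 CPM of the same genes. The 12 granulosa genes summed to 8929 to 9520 CPM with FSH21 at 10 ng/ml and 8432 to 9032 CPM with FSH24, against 7594 to 9211 CPM without FSH, which overlap. The 6 surface epithelium genes summed to 80.1 to 82.1 CPM with FSH21 at 10 ng/ml and 73.5 to 83.8 CPM with FSH24, against 36.6 to 49.8 CPM without FSH. In the 1 ng/ml groups the sums were 58.3 to 64.1 CPM with FSH21 and 46.2 to 80.1 CPM with FSH24, against 39.4 to 48.2 CPM without FSH. Krt8, at 28.6 CPM or more in every library, made up most of these sums in all libraries but the FSH24 library 6 at 1 ng/ml. The FSH24 library 6 at 1 ng/ml stood apart in the other epithelial genes: it held the highest level of Upk3b (19.5 CPM, next highest library 3.63 CPM), Krt19 (11.1 CPM, next 2.06 CPM), Krt7 (5.25 CPM, next 1.40 CPM) and Msln (1.73 CPM, next 0.343 CPM). The medians and positive counts of the mitosis genes that use that library are also given without it, while most single-gene values are not. The part of these shifts in the results that follow was not tested. In whole follicles, fewer cells of a type and less RNA per cell cannot be told apart.

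Granulosa cells divide during follicle growth, whereas the oocyte of a growing follicle is arrested in meiosis, and FSH acts through its receptor on granulosa cells. In a dividing cell, E2F factors switch on the genes of DNA synthesis before S phase, origins are licensed by loading of the MCM helicase, and the fork proteins then copy the DNA. Later, the complex of B-MYB and FOXM1 with the MuvB core switches on the mitotic genes through a promoter element called CHR, often beside CCAAT boxes bound by NF-Y.

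Promoters of both kinds are shown because the genes called among them went in opposite directions in these data, although only 2 replication genes were called with each form. In the RefSeq promoter table for GRCm38.p6, which gives 250 bases before and 50 bases after each annotated start, 17 of the 22 replication genes matched 19 promoters and 23 of the 27 mitosis genes matched 25. The letters searched were of 3 kinds, read on both strands: TTTCGCGC or TTTGGCGC (E2F), TTTGAA or TTCGAA (CHR), and CCAAT. E2F letters stood in 36.8% of the replication promoters and 8.0% of the mitosis promoters, against 0.813% of all 32851 promoters. CHR letters stood in 84.0% of the mitosis promoters and 15.8% of the replication promoters, against 19.2% of all promoters. CCAAT stood in 88.0% of the mitosis promoters and 68.4% of the replication promoters, against 37.4% of all promoters. CHR letters together with CCAAT stood in 80.0% of the mitosis promoters and 15.8% of the replication promoters, against 7.52% of all promoters. A match describes letters in a window and shows no bound factor. The relation of the letters to the calls was not tested. Mitosis promoters with both CHR letters and CCAAT included called genes, such as Ube2c and Mki67, and uncalled ones, such as Bub1b, Ttk and Ncapg. Cenpe, without CHR letters, rose with both forms, and Nusap1, with neither CHR letters nor CCAAT, rose with FSH24. The 250 bases before the start of 3 genes are printed 5′ to 3′ on the strand of the gene. For Mcm6 (chr1:128359706-128359955, minus strand), a subunit of the MCM helicase that fell with both forms of FSH, capitals mark the E2F letters, including 2 overlapping matches on opposite strands, and its CCAAT letters are left in lower case. For Ube2c (chr2:164769679-164769928, plus strand) and Mki67 (chr7:135716380-135716629, minus strand), mitotic genes that rose with both forms, capitals mark CCAAT and CHR letters.
Mcm6: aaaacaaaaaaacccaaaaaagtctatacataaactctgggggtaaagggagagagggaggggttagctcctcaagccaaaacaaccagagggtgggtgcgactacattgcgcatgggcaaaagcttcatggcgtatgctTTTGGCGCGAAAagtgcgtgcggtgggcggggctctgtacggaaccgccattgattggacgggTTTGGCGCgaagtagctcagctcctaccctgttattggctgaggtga
Ube2c: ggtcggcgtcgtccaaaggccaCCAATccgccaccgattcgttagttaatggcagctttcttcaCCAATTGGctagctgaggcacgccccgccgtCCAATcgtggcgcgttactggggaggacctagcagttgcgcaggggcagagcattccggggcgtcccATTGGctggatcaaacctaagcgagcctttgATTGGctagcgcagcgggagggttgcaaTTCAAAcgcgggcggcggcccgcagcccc
Mki67: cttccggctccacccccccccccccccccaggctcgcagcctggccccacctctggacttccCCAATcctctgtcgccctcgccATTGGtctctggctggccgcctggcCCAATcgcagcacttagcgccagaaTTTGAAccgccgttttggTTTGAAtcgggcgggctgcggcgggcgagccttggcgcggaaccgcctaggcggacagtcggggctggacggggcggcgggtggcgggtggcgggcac
Relative to the start, the E2F letters of Mcm6 began at positions -110, -106 and -47. In Ube2c a CHR match, read on the opposite strand, began at -29, downstream of 6 CCAAT matches. In Mki67 a pair of CHR matches began at -116 and -98, downstream of 3 CCAAT matches. Mcm7, which has 2 RefSeq promoters, held an E2F match in only one of them, 17 bases after the start. The CHR matches of the mitosis promoters had a median position of -20.5, and the E2F matches of the replication promoters one of -108.

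At 10 ng/ml, about as many mitosis genes rose as did not pass, and 2 of the 8 licensing genes fell, with either form of FSH. With FSH21, 13 of the 49 genes rose (5.96% of the 18727 genes tested rose) and 2 fell (4.21% of all genes fell), called at an adjusted p under 0.05 in edgeR's quasi-likelihood test with Benjamini-Hochberg adjustment over all genes tested. All 13 that rose were mitosis genes, and both that fell, Mcm6 and Mcm7, were licensing genes. With FSH24, 14 genes rose (5.12% of all genes rose) and 2 fell (3.3% of all genes fell). All 14 were again mitosis genes, and the genes that fell were Mcm5 and Mcm6. With each form, 2 of 49 is near the share of all genes that fell, so the count of falling genes says nothing particular of the 49. The same 12 genes were called with both forms, out of 19 called with either. The 27 mitosis genes all had positive fold changes with both forms, except that Bub1b, at 0.00 with FSH21, turned negative with that form under DESeq2's size factors or Wald test, with no filter on low counts and with only the groups compared. The median log2 fold change was 0.36 with FSH21 and 0.38 with FSH24, where the median of all genes was 0.00. Of the 22 replication genes, 17 had negative fold changes with each form, with medians of -0.06 with FSH21 and -0.13 with FSH24. The FSH21 median rests on single libraries, being -0.11 without the FSH21 library 2 or the untreated library 3 and -0.13 without the untreated library 4, so the medians of the forms are not set against each other. Between the untreated sets, numbers 2, 3 and 4 against 1, 5 and 6, 16 of the 22 replication genes were negative too, with a median of -0.06. The FSH21 and FSH24 comparisons share their untreated libraries, so they are not independent of each other.

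**Figure D1:**
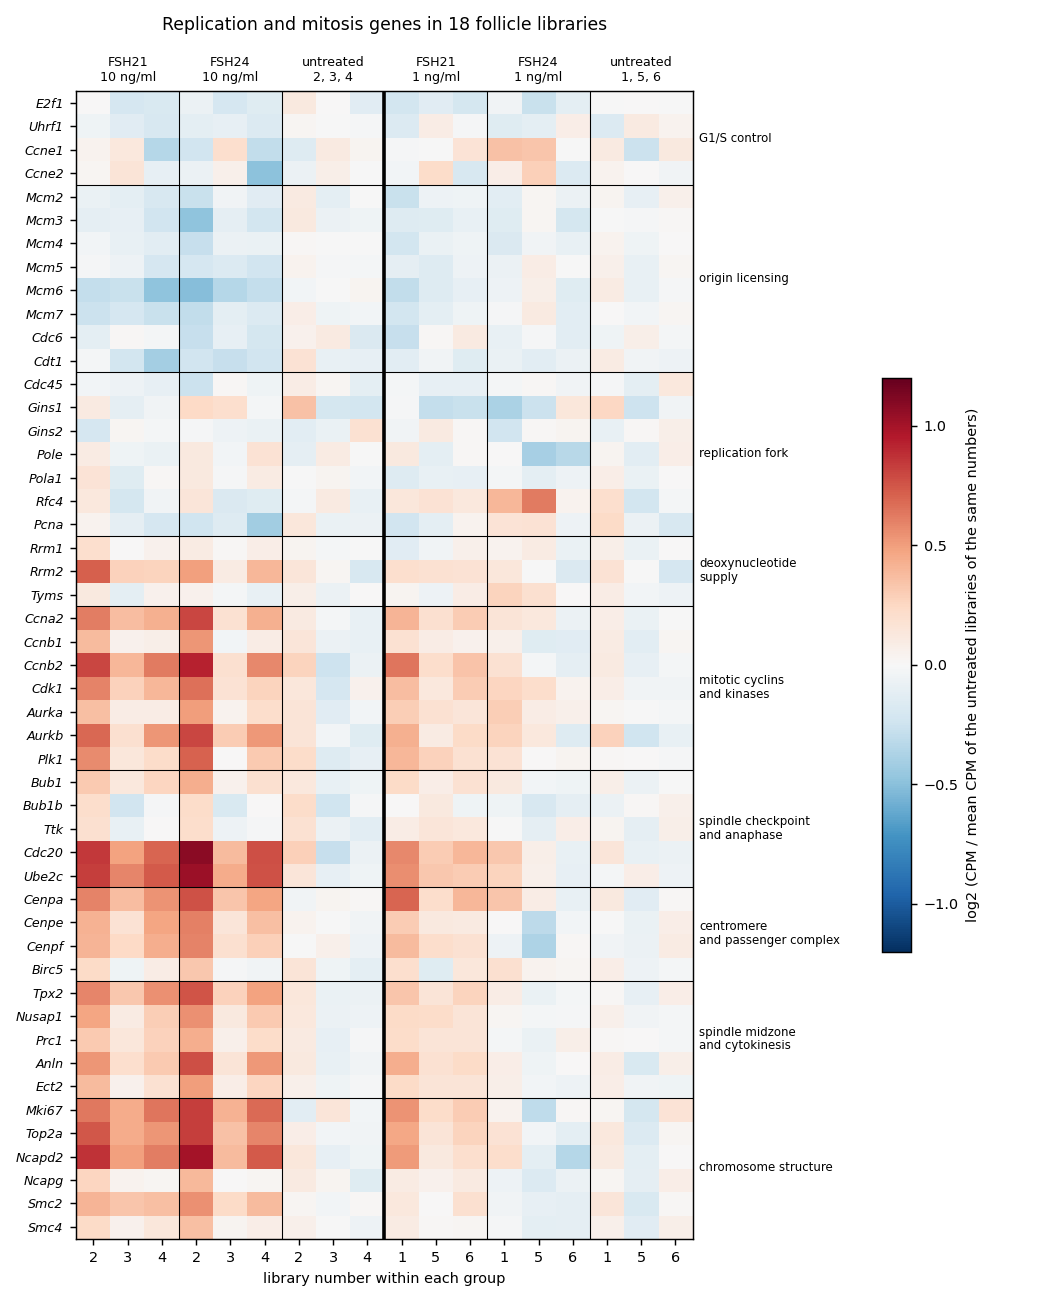
Level of each of the 49 genes (rows, by role) in each of the 18 libraries (columns, by group and library number), as log2 of CPM over the mean CPM of the untreated libraries of the same numbers. The mitosis rows are red in the FSH21 and FSH24 columns at 10 ng/ml, deepest in library 2 of each, and the origin licensing rows are pale blue there.

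The libraries of the mitosis genes often stood wholly apart. With FSH21 at 10 ng/ml, 16 of the 27 were higher in all 3 treated libraries than in any untreated library (15.7% of all genes were), and 5 of the 22 replication genes were lower in all 3 (12% of all genes were). With FSH24, 15 mitosis genes were higher in this way (13.8% of all genes were) and 8 replication genes lower (10.7% of all genes were). Matched by library number, 26, 26 and 27 of the 27 mitosis genes were higher with FSH21 in numbers 2, 3 and 4, by a median of 0.38, 0.24 and 0.35 on the log2 scale. With FSH24 the counts were 27, 26 and 27, and the medians 0.53, 0.19 and 0.38. Libraries of the same number tended to deviate together, most evenly in the comparison of FSH21 with untreated follicles. With the number as a block 25 of the 49 genes were called in that comparison, 22 higher and 3 lower (8.43% of all genes higher and 6.62% lower). The 10 genes that the block added were Cdt1, lower, and Rrm2, Aurka, Aurkb, Plk1, Bub1, Nusap1, Prc1, Anln and Ect2, higher.

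The counts of called genes fell when any of several single libraries was left out, library 2 among them. The FSH24 library 2 was the highest of all 18 libraries for all 27 mitosis genes, and number 2 was also the highest of its group for 24 of them with FSH21 and for 24 without FSH. Leaving out the FSH21 library 2, or the untreated library 3 or 4, left 7 called genes with FSH21, and leaving out the FSH21 library 4 left 8. With FSH24, 6 genes were called without the FSH24 library 2 or the untreated library 4, 7 without the untreated library 3 and 8 without the FSH24 library 4. The class leaned less to one side without single libraries. Without the FSH24 library 2, 23 of the 27 mitosis genes were positive, with a median of 0.23 against 0.38 with all libraries, and Birc5, Bub1b, Ncapg and Ttk were negative. With FSH24, 26 were positive without the untreated library 3 and 25 without the untreated library 4. With FSH21, 25 were positive without the FSH21 library 2 or the untreated library 3 or 4, with medians of 0.32, 0.32 and 0.31, and Bub1b and Ttk were negative. With no library numbered 2 in any group, a setting chosen after seeing the data, all 27 were positive with both forms, with medians of 0.33 with FSH21 and 0.28 with FSH24, and 9 were called with FSH21 and 5 with FSH24.

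**Figure D2:**
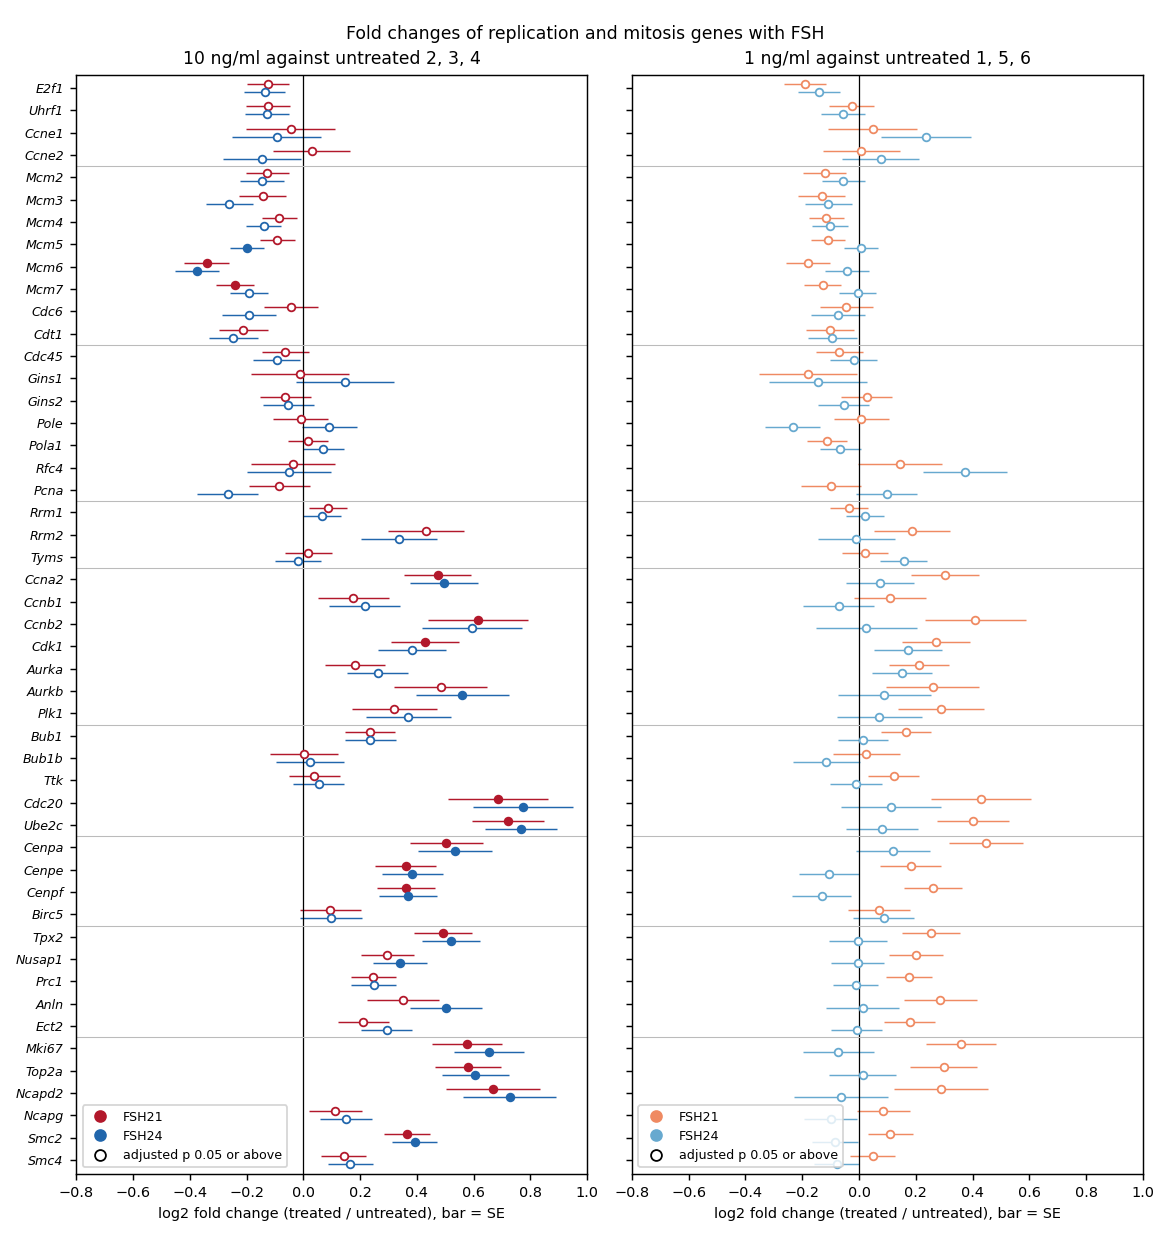
Log2 fold change of each gene (points, bars are standard errors) with FSH21 and FSH24 against untreated cultures of the same numbers, at 10 ng/ml on the left and 1 ng/ml on the right. Filled points passed an adjusted p of 0.05, which 15 genes did with FSH21 and 16 with FSH24 at 10 ng/ml and none did at 1 ng/ml.

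None of the 4 G1/S control genes passed in any comparison. E2f1, the transcription factor that activates S-phase genes, stood at 73.7, 64.2 and 65.1 CPM with FSH21 and 70.4, 64.1 and 66.6 CPM with FSH24 at 10 ng/ml, against 80.1, 73.9 and 67.1 CPM without FSH, values being given in the order of the library numbers here and below. The groups overlapped, and the log2 fold changes were -0.12 ± 0.07 with FSH21 and -0.14 ± 0.07 with FSH24 (± SE), with adjusted p-values of 0.357 and 0.312. At 1 ng/ml E2f1 stood at 67.5, 71.6 and 68 CPM with FSH21 and 76.4, 65.5 and 72.4 CPM with FSH24, against 78.6, 79 and 78.7 CPM without FSH. There the treated libraries of both forms all lay below the untreated ones, which were within 1 CPM of each other, with adjusted p-values of 0.535 for FSH21 and 0.821 for FSH24. Uhrf1, which recognises hemimethylated DNA behind the fork, stood at 525, 497 and 479 CPM with FSH21 and 502, 508 and 487 CPM with FSH24 at 10 ng/ml, against 554, 543 and 539 CPM without FSH. All 6 treated libraries lay below the untreated ones by a small step, and neither passed (adjusted p 0.395 and 0.394). The 1 ng/ml libraries gave it 474, 565 and 525 CPM with FSH21 and 480.4, 491 and 559.9 CPM with FSH24, against 473, 572 and 548 CPM without FSH, with overlapping groups. Ccne2, a cyclin E that drives entry into S phase, stood at 22.5, 24.7 and 20.7 CPM with FSH21 and 21.2, 23.2 and 15.8 CPM with FSH24 at 10 ng/ml, against 21.1, 23.3 and 22.1 CPM without FSH. In the 1 ng/ml libraries it stood at 21.1, 25.2 and 19 CPM with FSH21 and 22.9, 26.4 and 19.3 CPM with FSH24, against 22.3, 21.6 and 21 CPM without FSH, and the groups overlapped at both doses. Ccne1, the other cyclin E, had log2 fold changes between -0.09 and 0.24 over the 4 comparisons and passed in none.

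Origin licensing showed the lower levels among the replication genes: all 8 genes had negative fold changes with both forms at 10 ng/ml, except that Cdc6 was positive with FSH21 without the untreated library 3 and with no library numbered 2. Mcm6 (ENSMUSG00000026355, chr1:128331590-128359664 on the minus strand of GRCm38) stood at 154, 156 and 135 CPM with FSH21 and 132, 149 and 155 CPM with FSH24 at 10 ng/ml, against 185, 188 and 192 CPM without FSH. All 6 treated libraries lay below all untreated ones, and Mcm6 fell by 0.34 ± 0.08 (log2, ± SE; adjusted p = 0.00725) with FSH21 and by 0.38 ± 0.08 (adjusted p = 0.00463) with FSH24. At 1 ng/ml Mcm6 stood at 166, 182 and 189.6 CPM with FSH21 and 194, 214 and 183 CPM with FSH24, against 217, 191 and 201 CPM without FSH. The 3 FSH21 libraries again lay below the untreated ones while the FSH24 libraries overlapped with them, and neither passed (adjusted p 0.622 and 0.956). Mcm7, another subunit of the ring, stood at 118, 123 and 117 CPM with FSH21 and 115, 129.8 and 126 CPM with FSH24 at 10 ng/ml, against 149, 136 and 138 CPM without FSH. Every treated library was again below every untreated one, but Mcm7 fell past the threshold only with FSH21, by 0.24 ± 0.07 (adjusted p = 0.0235), against -0.19 ± 0.07 (adjusted p = 0.0849) with FSH24. The difference between the forms was not called (adjusted p = 1). With 1 ng/ml, Mcm7 stood at 129, 138 and 144 CPM with FSH21 and 148, 161 and 137 CPM with FSH24, against 149.7, 147 and 152 CPM without FSH, where the FSH21 libraries lay below the untreated ones and the FSH24 libraries overlapped with them. Mcm5 stood at 124, 121 and 109 CPM with FSH21 and 109, 112 and 107 CPM with FSH24 at 10 ng/ml, against 129, 124 and 124 CPM without FSH. It fell with FSH24, by 0.20 ± 0.06 (adjusted p = 0.0496), and the FSH24 libraries lay below the untreated ones while the FSH21 libraries overlapped with them (-0.09 ± 0.06, adjusted p = 0.427). Mcm5 at 1 ng/ml stood at 119.7, 116 and 124 CPM with FSH21 and 123, 138 and 129 CPM with FSH24, against 135, 122 and 131 CPM without FSH, with overlapping groups. The other licensing genes, Mcm2, Mcm3, Mcm4, the loader Cdc6 and the licensing factor Cdt1, had log2 fold changes between -0.26 and -0.04 at 10 ng/ml and passed in neither comparison, the nearest being Mcm3 with FSH24 (adjusted p = 0.0593). With 1 library left out, Mcm6 kept its call except without the FSH21 library 4 (adjusted p = 0.0554 with FSH21). With no library numbered 2 in any group, Mcm6 missed the threshold with FSH24 (adjusted p = 0.0548 in edgeR's test), and no replication gene was called lower with that form. Mcm7 lost its call without the FSH21 library 2 or 4 or the untreated library 2 (adjusted p 0.0575 to 0.092), and Mcm5 lost its call whichever of the 6 libraries was left out (0.0601 to 0.132).

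The replication fork genes passed in no comparison. Pcna, the sliding clamp of the polymerases, stood at 81.5, 73.2 and 68.8 CPM with FSH21 and 66.9, 70.8 and 59.2 CPM with FSH24 at 10 ng/ml, against 86.7, 74.9 and 75.3 CPM without FSH. The FSH24 libraries all lay below the untreated ones and the FSH21 libraries overlapped with them, with log2 fold changes of -0.08 ± 0.11 with FSH21 and -0.27 ± 0.11 with FSH24 (adjusted p 0.726 and 0.152). The lower dose gave Pcna values of 67.7, 73.3 and 81.5 CPM with FSH21 and 89.1, 89.5 and 76.3 CPM with FSH24, against 92.9, 75.7 and 69.6 CPM without FSH, and the untreated library 1 was its highest value in the study. Cdc45, part of the active helicase, stood at 27.9, 27.4 and 26.7 CPM with FSH21 and 23.8, 28.9 and 27.6 CPM with FSH24 at 10 ng/ml, against 30.3, 29.1 and 26.3 CPM without FSH. Its groups overlapped there and at 1 ng/ml, where it stood at 28.8, 27.3 and 27.3 CPM with FSH21 and 28.7, 29.5 and 28.3 CPM with FSH24, against 28.9, 26.9 and 31.8 CPM without FSH. Pola1, the catalytic subunit of the priming polymerase, stood at 54.5, 43.9 and 48.9 CPM with FSH21 and 52.6, 48.2 and 52 CPM with FSH24 at 10 ng/ml, against 48.4, 49.6 and 47.5 CPM without FSH. In the 1 ng/ml set, Pola1 stood at 47.6, 49.7 and 49.4 CPM with FSH21 and 52.1, 48.8 and 50.8 CPM with FSH24, against 55.8, 50.0 and 53 CPM without FSH, where the FSH21 libraries lay just below the untreated ones (adjusted p = 0.826). The others, Gins1 and Gins2 of the GINS complex, Pole of the leading-strand polymerase and Rfc4 of the clamp loader, had log2 fold changes between -0.23 and 0.37 over the 4 comparisons. The ends of that range, Pole and Rfc4 with FSH24 at 1 ng/ml, had adjusted p-values of 0.815 and 0.815.

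Deoxynucleotide supply held the replication gene with the most positive fold change. Rrm2, the inducible subunit of ribonucleotide reductase, stood at 86.9, 63.8 and 63.4 CPM with FSH21 and 74.1, 56.5 and 69.4 CPM with FSH24 at 10 ng/ml, against 58.4, 53.7 and 46.3 CPM without FSH. All 3 FSH21 libraries lay above the untreated ones while the FSH24 libraries overlapped with them, and Rrm2 just missed the threshold with FSH21 (0.43 ± 0.13, adjusted p = 0.0503) and missed it with FSH24 (0.34 ± 0.13, adjusted p = 0.151). For Rrm2 at 1 ng/ml the values were 65.6, 65 and 64.6 CPM with FSH21 and 62.7, 57.1 and 50.7 CPM with FSH24, against 64.7, 57.1 and 49.7 CPM without FSH, and the FSH21 libraries lay close together at the top of the wider untreated range. Rrm1, the large subunit of the same enzyme, stood at 145, 127 and 131 CPM with FSH21 and 135, 128 and 134 CPM with FSH24 at 10 ng/ml, against 129.6, 124 and 126 CPM without FSH. Its fold changes were 0.09 ± 0.07 and 0.07 ± 0.07 with FSH21 and FSH24, and its groups overlapped. With 1 ng/ml, Rrm1 stood at 124, 133 and 142 CPM with FSH21 and 140.1, 146 and 129 CPM with FSH24, against 144, 129 and 137 CPM without FSH, again overlapping. Tyms, thymidylate synthase, stood at 39.8, 33.9 and 38 CPM with FSH21 and 38, 36.2 and 34.6 CPM with FSH24 at 10 ng/ml, against 38.5, 34.9 and 36.9 CPM without FSH. Tyms at 1 ng/ml stood at 36.3, 34.2 and 37.8 CPM with FSH21 and 42.7, 40.6 and 35.6 CPM with FSH24, against 37.9, 34.8 and 34 CPM without FSH, with overlapping groups at both doses.

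Among mitotic cyclins and kinases, 3 of 7 genes rose with FSH21 and 2 with FSH24 at 10 ng/ml, and all 7 had positive fold changes with both. Ccna2, the cyclin A of S phase and mitotic entry, stood at 166, 139 and 145 CPM with FSH21 and 189, 123 and 145 CPM with FSH24 at 10 ng/ml, against 117, 106 and 102 CPM without FSH. All treated libraries were above all untreated ones, and Ccna2 rose with FSH21 by 0.47 ± 0.12 (adjusted p = 0.0168) and with FSH24 by 0.50 ± 0.12 (adjusted p = 0.0144). The lower dose gave Ccna2 values of 151, 131 and 141 CPM with FSH21 and 127, 125 and 109 CPM with FSH24, against 121, 108 and 114 CPM without FSH, where the FSH21 libraries lay above both other groups (adjusted p = 0.555 against untreated). Ccnb2, a B-type mitotic cyclin, stood at 107, 81.1 and 94.6 CPM with FSH21 and 116, 70.1 and 91.8 CPM with FSH24 at 10 ng/ml, against 74, 51.9 and 58.6 CPM without FSH. It rose with FSH21 by 0.62 ± 0.18 (adjusted p = 0.0386), and with FSH24 its change of 0.59 ± 0.18 missed the threshold (adjusted p = 0.0526), the FSH24 library 3 lying below the untreated library 2. In the 1 ng/ml set, Ccnb2 stood at 92.7, 68.7 and 75 CPM with FSH21 and 67.5, 58.4 and 55.2 CPM with FSH24, against 64, 55.5 and 58.5 CPM without FSH, with the FSH21 libraries above both other groups. Cdk1, the kinase that these cyclins activate, stood at 98.9, 78.9 and 85.9 CPM with FSH21 and 103, 73.4 and 78.6 CPM with FSH24 at 10 ng/ml, against 71.5, 56.7 and 67.6 CPM without FSH. All treated libraries were above the untreated ones, and Cdk1 rose with FSH21 by 0.43 ± 0.12 (adjusted p = 0.0292), while 0.38 ± 0.12 with FSH24 did not pass (adjusted p = 0.0589). For Cdk1 at 1 ng/ml the values were 82.5, 69.8 and 79.2 CPM with FSH21 and 76.4, 73.9 and 65.8 CPM with FSH24, against 67.8, 62.1 and 61.9 CPM without FSH, and the FSH21 libraries lay above the untreated ones. Aurkb, the kinase of the chromosomal passenger complex, rose with FSH24 by 0.56 ± 0.16 (adjusted p = 0.0452) and had 0.48 ± 0.16 with FSH21 (adjusted p = 0.0777). The remaining Ccnb1, Aurka and Plk1, a B-type cyclin and a pair of spindle pole kinases, had fold changes between 0.18 and 0.37 at 10 ng/ml and did not pass. The calls of this group were lost when any of several libraries was left out. The FSH21 calls of Ccna2, Ccnb2 and Cdk1 were each lost without the FSH21 library 2 or the untreated library 3 or 4. Those of Ccnb2 and Cdk1 were also lost without the FSH21 library 4 (adjusted p 0.0665 to 0.175 over these cases). The FSH24 call of Ccna2 was lost without the FSH24 library 2 or the untreated library 3 or 4 (0.0696 to 0.0967), and that of Aurkb without any library but the FSH24 library 3 (0.061 to 0.225).

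**Figure D3:**
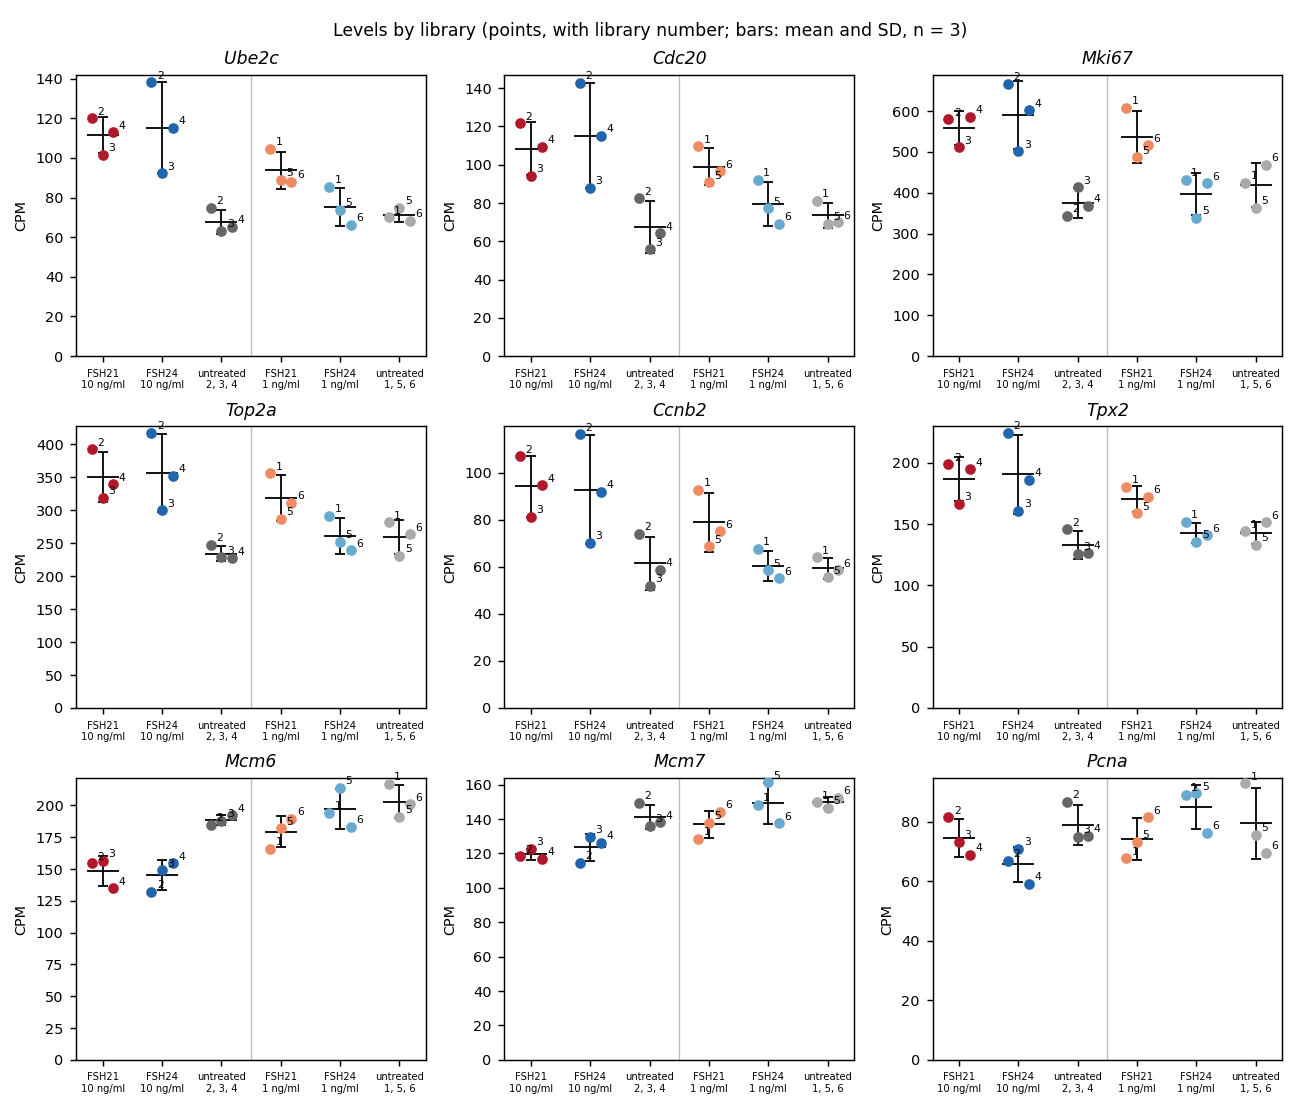
CPM of 9 genes in each library (points, labelled with the library number) with the mean and SD of each group (n = 3). Ube2c, Cdc20, Mki67, Top2a and Tpx2 are higher in every library with FSH21 or FSH24 at 10 ng/ml than in any untreated library numbered 2, 3 or 4, and Mcm6 and Mcm7 are lower.

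The spindle checkpoint and anaphase genes were split. Ube2c, the ubiquitin-conjugating enzyme of the anaphase-promoting complex (ENSMUSG00000001403, chr2:164769898-164778822 on the plus strand of GRCm38), stood at 120.0, 102 and 113 CPM with FSH21 and 138, 92.2 and 115 CPM with FSH24 at 10 ng/ml, against 74.7, 63.1 and 65.2 CPM without FSH. All treated libraries were above all untreated ones, and Ube2c rose by 0.72 ± 0.13 with FSH21 (adjusted p = 0.00126) and by 0.77 ± 0.13 with FSH24 (adjusted p = 0.00101), the smallest adjusted p of the 49 genes in both comparisons. With 1 ng/ml, Ube2c stood at 105, 88.9 and 87.8 CPM with FSH21 and 85.5, 73.9 and 66.2 CPM with FSH24, against 70.0, 74.9 and 68.1 CPM without FSH. The FSH21 libraries lay above both other groups, with 0.40 ± 0.13 over untreated follicles, which did not pass (adjusted p = 0.386). Cdc20, which activates the anaphase-promoting complex, stood at 122, 94.3 and 109 CPM with FSH21 and 143, 87.8 and 115 CPM with FSH24 at 10 ng/ml, against 82.5, 55.7 and 64.2 CPM without FSH. Its groups did not overlap, and it rose by 0.68 ± 0.18 with FSH21 (adjusted p = 0.0221) and by 0.77 ± 0.18 with FSH24 (adjusted p = 0.0124). Cdc20 at 1 ng/ml stood at 109.7, 90.8 and 96.7 CPM with FSH21 and 92.2, 77.3 and 69.2 CPM with FSH24, against 81.2, 69.3 and 70.0 CPM without FSH, with the FSH21 libraries above the untreated ones. Bub1, a kinase of the checkpoint at the kinetochore, stood at 75, 65.7 and 71.7 CPM with FSH21 and 81.4, 62.2 and 68.9 CPM with FSH24 at 10 ng/ml, against 65.9, 56.5 and 58.1 CPM without FSH. The treated and untreated ranges overlapped, and its changes of 0.23 ± 0.09 and 0.24 ± 0.09 with FSH21 and FSH24 did not pass (adjusted p 0.112 and 0.12). The lower dose gave Bub1 values of 69.9, 62.9 and 67.6 CPM with FSH21 and 64.5, 58.4 and 57.5 CPM with FSH24, against 62.4, 56.7 and 59.5 CPM without FSH, where the FSH21 libraries lay above the untreated ones. Bub1b and Ttk, the checkpoint proteins BUBR1 and MPS1, had fold changes between 0.00 and 0.05 at 10 ng/ml, the smallest of the mitosis genes. Bub1b was also the mitosis gene with the highest level per kilobase of exon in untreated follicles, 71.8 CPM per kb. The Ube2c calls held when any 1 library was left out, while the Cdc20 calls were lost without the treated library 2 or 4 or the untreated library 3 or 4 (adjusted p 0.0656 to 0.115 with FSH21 and 0.0517 to 0.0797 with FSH24).

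At the centromere, 3 of 4 genes rose with each form. Cenpa, the histone H3 variant that marks centromeric chromatin, stood at 48.8, 41.6 and 46.7 CPM with FSH21 and 54.8, 40.5 and 44.8 CPM with FSH24 at 10 ng/ml, against 31.2, 32.9 and 32.6 CPM without FSH. The untreated libraries lay close together and below all treated ones, and Cenpa rose by 0.50 ± 0.13 with FSH21 (adjusted p = 0.0176) and 0.53 ± 0.13 with FSH24 (adjusted p = 0.0138). In the 1 ng/ml set, Cenpa stood at 49.1, 35.1 and 39.9 CPM with FSH21 and 38.2, 32.3 and 28.4 CPM with FSH24, against 32.8, 27.5 and 30.6 CPM without FSH; its change with FSH21, 0.45 ± 0.13, had the smallest adjusted p of the 49 genes in that comparison, 0.308. Cenpf, a large kinetochore protein, stood at 317, 282 and 324 CPM with FSH21 and 361, 274 and 292 CPM with FSH24 at 10 ng/ml, against 238, 250.2 and 230.1 CPM without FSH. It rose by 0.36 ± 0.10 with FSH21 (adjusted p = 0.0313) and 0.37 ± 0.10 with FSH24 (adjusted p = 0.0321), with no overlap between treated and untreated libraries. For Cenpf at 1 ng/ml the values were 314, 278 and 274 CPM with FSH21 and 231, 186 and 242 CPM with FSH24, against 234, 230.0 and 258 CPM without FSH, the FSH21 libraries lying above both other groups. Cenpe, the kinesin that aligns chromosomes, stood at 146, 124 and 152 CPM with FSH21 and 167, 121 and 141 CPM with FSH24 at 10 ng/ml, against 112, 109 and 107 CPM without FSH. It rose by 0.36 ± 0.11 (adjusted p = 0.0384) with FSH21 and 0.38 ± 0.11 (adjusted p = 0.0317) with FSH24, again without overlap. With 1 ng/ml, Cenpe stood at 141, 124 and 123 CPM with FSH21 and 115, 92.1 and 112 CPM with FSH24, against 114, 108 and 121 CPM without FSH, again with the FSH21 libraries above both other groups. Birc5, the survivin subunit of the passenger complex, had 0.09 ± 0.11 with FSH21 and 0.10 ± 0.11 with FSH24 and did not pass. With FSH21, the calls of all 3 genes were lost when any library but the FSH21 library 3 was left out (adjusted p 0.0603 to 0.168). With FSH24, Cenpf and Cenpe were lost without any library but the FSH24 library 3, and Cenpa without the FSH24 library 2 or any untreated library (0.0512 to 0.218).

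The spindle midzone and cytokinesis genes had fold changes between 0.21 and 0.52 at 10 ng/ml. Tpx2, which drives spindle assembly and activates Aurora A, stood at 199, 166 and 195 CPM with FSH21 and 225, 161 and 186 CPM with FSH24 at 10 ng/ml, against 146, 126 and 127 CPM without FSH. Every treated library was above every untreated one, and Tpx2 rose by 0.49 ± 0.10 with FSH21 (adjusted p = 0.00393) and 0.52 ± 0.10 with FSH24 (adjusted p = 0.00322), calls that held with any 1 library left out. Tpx2 at 1 ng/ml stood at 180.4, 159 and 172 CPM with FSH21 and 152, 135 and 141 CPM with FSH24, against 144, 133 and 151 CPM without FSH, with the FSH21 libraries above both other groups. Anln, the anillin of the cleavage furrow, stood at 127, 102 and 109 CPM with FSH21 and 151, 98.3 and 126 CPM with FSH24 at 10 ng/ml, against 96, 83 and 85.8 CPM without FSH. The treated libraries lay above the untreated ones. Anln rose with FSH24 by 0.50 ± 0.13 (adjusted p = 0.0201), while 0.35 ± 0.13 with FSH21 did not pass (adjusted p = 0.101). The lower dose gave Anln values of 119, 99.9 and 103 CPM with FSH21 and 93.1, 85.2 and 88.2 CPM with FSH24, against 93.9, 77.7 and 92.5 CPM without FSH, with the FSH21 libraries above both other groups. Nusap1, which bundles spindle microtubules, stood at 137, 106 and 122 CPM with FSH21 and 145, 107 and 123 CPM with FSH24 at 10 ng/ml, against 108, 94.3 and 94.5 CPM without FSH. It rose with FSH24 by 0.34 ± 0.09 (adjusted p = 0.0304) although library 3 of each form lay just below the untreated library 2, and 0.30 ± 0.09 with FSH21 did not pass (adjusted p = 0.0547). In the 1 ng/ml set, Nusap1 stood at 119, 118 and 113 CPM with FSH21 and 103, 99.7 and 100.1 CPM with FSH24, against 106, 98.6 and 99.9 CPM without FSH, with the FSH21 libraries above both other groups. Prc1, the crosslinker of the midzone, and Ect2, the activator of RhoA in the furrow, had fold changes of 0.21 to 0.29 at 10 ng/ml and did not pass, the nearest being Ect2 with FSH24 (adjusted p = 0.0508). The FSH24 calls of Anln and Nusap1 were lost without the FSH24 library 2 or 4 or the untreated library 3 or 4 (adjusted p 0.0835 to 0.250).

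Of the chromosome structure genes, the same 4 of 6 rose with both forms. Mki67, the proliferation marker Ki-67 that coats mitotic chromosomes (ENSMUSG00000031004, chr7:135689784-135716361 on the minus strand of GRCm38), stood at 579.7, 511 and 586 CPM with FSH21 and 666, 501 and 602 CPM with FSH24 at 10 ng/ml, against 344, 414 and 367 CPM without FSH. Treated and untreated libraries did not overlap, and Mki67 rose by 0.58 ± 0.12 with FSH21 (adjusted p = 0.0056) and 0.65 ± 0.12 with FSH24 (adjusted p = 0.00281). For Mki67 at 1 ng/ml the values were 609, 487 and 516 CPM with FSH21 and 432, 339 and 423 CPM with FSH24, against 424, 363 and 469 CPM without FSH. All FSH21 libraries exceeded all FSH24 and untreated libraries there, with 0.36 ± 0.12 over untreated follicles (adjusted p = 0.448). Top2a, the topoisomerase that untangles sister chromatids, stood at 392, 319 and 339 CPM with FSH21 and 417, 299.6 and 352 CPM with FSH24 at 10 ng/ml, against 247, 228 and 227 CPM without FSH. Its groups did not overlap, and it rose by 0.58 ± 0.12 with FSH21 (adjusted p = 0.00337) and 0.61 ± 0.12 with FSH24 (adjusted p = 0.0031). With 1 ng/ml, Top2a stood at 356, 287 and 311 CPM with FSH21 and 291, 252 and 239 CPM with FSH24, against 282, 231 and 263 CPM without FSH, the FSH21 libraries lying above the untreated ones. Smc2, the ATPase shared by both condensins, stood at 117, 111 and 113 CPM with FSH21 and 129, 104 and 115 CPM with FSH24 at 10 ng/ml, against 89.6, 86.5 and 88.9 CPM without FSH. The untreated libraries lay within 4 CPM of each other and below all treated ones, and Smc2 rose by 0.36 ± 0.08 with FSH21 (adjusted p = 0.00577) and 0.39 ± 0.08 with FSH24 (adjusted p = 0.00429). Smc2 at 1 ng/ml stood at 107, 98.5 and 112 CPM with FSH21 and 95.2, 91.7 and 90.7 CPM with FSH24, against 109, 86.1 and 99.3 CPM without FSH, with overlapping treated and untreated libraries. Ncapd2, a subunit of condensin I, rose by 0.67 ± 0.17 with FSH21 (adjusted p = 0.0174) and 0.73 ± 0.17 with FSH24 (adjusted p = 0.012). Ncapg, also of condensin I, and Smc4, the partner of Smc2, had fold changes between 0.11 and 0.16 and did not pass. The calls of Mki67, Top2a and Smc2 held with any 1 library left out. With no library numbered 2 in any group, Mki67 missed the threshold with both forms (adjusted p = 0.0774 with FSH21 and 0.0947 with FSH24), as did Smc2 with FSH24 (0.0775). The calls of Ncapd2 were lost without the treated library 2 or the untreated library 3 or 4, and with FSH24 also without the FSH24 library 4 (adjusted p 0.0514 to 0.0998).

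At 1 ng/ml none of the 49 genes passed with either form in edgeR's test without the block. With FSH21, 0 of the 49 genes were called (0.0908% of all genes were called higher and 0.0374% lower), 15 had an unadjusted p under 0.05 in edgeR's quasi-likelihood test, and DESeq2's Wald test called 0. Of those 15, 13 were mitosis genes with higher levels (4.2% of all genes were higher at that p) and 2 were replication genes, E2f1 and Mcm6, with lower levels (3.12% of all genes). With the number as a block 8 genes were called with FSH21, all mitosis genes with higher levels (0.79% of all genes higher and 0.417% lower). All 27 mitosis genes had positive fold changes with a median of 0.25, and 20 of them were higher in all 3 FSH21 libraries than in any untreated one (6.75% of all genes were). Without the FSH21 library 1 the median was 0.17, with 26 positive, and 26 were also positive without the FSH21 library 5 or the untreated library 1 or 5. All 8 licensing genes had negative fold changes, with a median of -0.12, although Cdc6 was positive without the FSH21 library 1 and with no library numbered 1. All 8 were negative between the untreated sets as well, with a median of -0.09 for numbers 2, 3 and 4 against 1, 5 and 6. With FSH24, 0 genes were called (0% of all genes), 2 had an unadjusted p under 0.05, Pole with a lower level (2.74% of all genes were lower at that p) and Rfc4 with a higher one (3.23% of all genes), and DESeq2 called 0. The mitosis genes were evenly split, 13 positive and 14 negative, with a median of -0.00. With 1 library left out, between 6 (without the FSH24 library 1) and 19 (without the FSH24 library 5) were positive. Without the FSH24 library 6, which stood apart in Upk3b, Krt19, Krt7 and Msln, 17 were positive, with a median of 0.02, and 0 of the 49 genes were called. Of the 27 mitosis genes 1, Aurka, was higher in all 3 FSH24 libraries than in any untreated one (5.3% of all genes were).

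Set directly against each other, FSH21 and FSH24 gave no called difference among the 49 genes at either dose in edgeR's test without the block. At 10 ng/ml 0 genes were called (0% of all genes), 0 had an unadjusted p under 0.05 (1.01% of all genes did with FSH21 higher and 1.18% with FSH21 lower) and DESeq2 called 0. There the difference of FSH21 over FSH24 (log2) was -0.05 ± 0.13 for Ube2c with a 95% interval from -0.31 to 0.22, and -0.08 ± 0.12 for Mki67, from -0.34 to 0.18. For Mcm6 it was 0.03 ± 0.08, from -0.13 to 0.20. At 1 ng/ml 0 genes were called (0.0107% of all genes were higher with FSH21), yet 14 had an unadjusted p under 0.05, all higher with FSH21 (4.97% of all genes were), and DESeq2 called 2 (and 204 of all genes). With the number as a block 6 of the 49 were called, all mitosis genes higher with FSH21 (0.587% of all genes higher and 0.358% lower). Of the 27 mitosis genes 26 were higher with FSH21 than with FSH24, by a median of 0.21, and without the FSH24 library 6 again 26, by a median of 0.20. The differences farthest from 0 for their error were 0.39 ± 0.10 for Cenpf (95% interval from 0.18 to 0.61, adjusted p = 0.195) and 0.43 ± 0.12 for Mki67 (from 0.17 to 0.70, adjusted p = 0.246). These intervals are not adjusted for the number of genes, and a value that misses the threshold does not show that the forms act alike.

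The step from 1 to 10 ng/ml was tested as the effect at 10 ng/ml minus the effect at 1 ng/ml, each against untreated cultures of its own numbers, since dose and library number go together. For FSH21, 0 genes passed (0.101% of all genes were higher and 0.171% lower), 1, Smc2, had an unadjusted p under 0.05 with the larger effect at 10 ng/ml (3.8% of all genes did) and DESeq2 called 0. The 27 mitosis genes had a median difference of 0.09, with 24 positive. That median rests on single libraries: it was 0.04, with 16 positive, without the FSH21 library 2 at 10 ng/ml, 0.06 without the untreated library 3 and 0.05 without the untreated library 4. It was 0.15 without the FSH21 library 3 at 10 ng/ml or the untreated library 2, and 0.16 without the FSH21 library 1 at 1 ng/ml. For FSH24, 2 genes passed, both with the larger effect at 10 ng/ml (1.21% of all genes did): Smc2, by 0.48 ± 0.11 (adjusted p = 0.0327), and Mki67, by 0.73 ± 0.18 (adjusted p = 0.0367). All 27 mitosis genes leaned the same way with a median of 0.42, 17 of them with an unadjusted p under 0.05 (8.33% of all genes did in that direction), and DESeq2 called 8 of the 49 genes, while it called 816 of all genes where edgeR called 458. Without the FSH24 library 2 at 10 ng/ml the median was 0.22, with 24 positive, and without the FSH24 library 6 at 1 ng/ml it was 0.34, with 26 positive. With 1 of the 12 libraries left out, the Smc2 call held only without the FSH24 library 3 at 10 ng/ml or the untreated library 5 and was lost in the other 10 cases (adjusted p 0.0658 to 0.116). The Mki67 call held only without those or the untreated library 3 and was lost in the other 9 (0.05 to 0.113). Between 0 and 10 of the 49 genes were called in these cases, 10 of them without the FSH24 library 3. The groups of untreated cultures, numbers 2, 3 and 4 against numbers 1, 5 and 6, differed in 0 of the 49 genes (0% of all genes), with 1 unadjusted p under 0.05, that of Mcm4, lower (2.65% of all genes), and 0 called by DESeq2. The mitosis genes had a median difference of -0.01. The replication genes had one of -0.06, with 16 of 22 negative, and all 8 licensing genes were negative, with a median of -0.09.

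Summed over the class, the 27 mitosis genes made up 4419 ± 414 CPM with FSH21 and 4533 ± 737 CPM with FSH24 at 10 ng/ml, against 3459 ± 207 CPM without FSH (SD, n = 3 each). Each treated library was above each untreated one, although the FSH24 library 3, at 3858 CPM, lay near the untreated library 2, at 3698 CPM. The 22 replication genes summed to 1932 ± 101 CPM with FSH21 and 1893 ± 31.4 CPM with FSH24, against 2072 ± 58.0 CPM without FSH. The FSH24 libraries lay below all untreated ones and the FSH21 library 2, at 2038 CPM, lay among them. The ratio of the mitosis to the replication sum was 2.29 ± 0.176 with FSH21 and 2.40 ± 0.429 with FSH24, against 1.67 ± 0.0527 without FSH. At 1 ng/ml the mitosis sum was 4157 ± 272 CPM with FSH21 and 3505 ± 227 CPM with FSH24, against 3568 ± 190 CPM without FSH, and the FSH21 libraries lay above the others. The replication sum there was 2041 ± 96.7 CPM with FSH21 and 2087 ± 41.5 CPM with FSH24, against 2148 ± 22.2 CPM without FSH. Number 1 played the part of number 2 in this set: it was the highest library of its group for 23 of the 27 mitosis genes with FSH21, 24 with FSH24 and 18 without FSH. With no library numbered 1, chosen after seeing the data, all 27 mitosis genes were positive with FSH21 at 1 ng/ml with a median of 0.22.

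**Figure D4:**
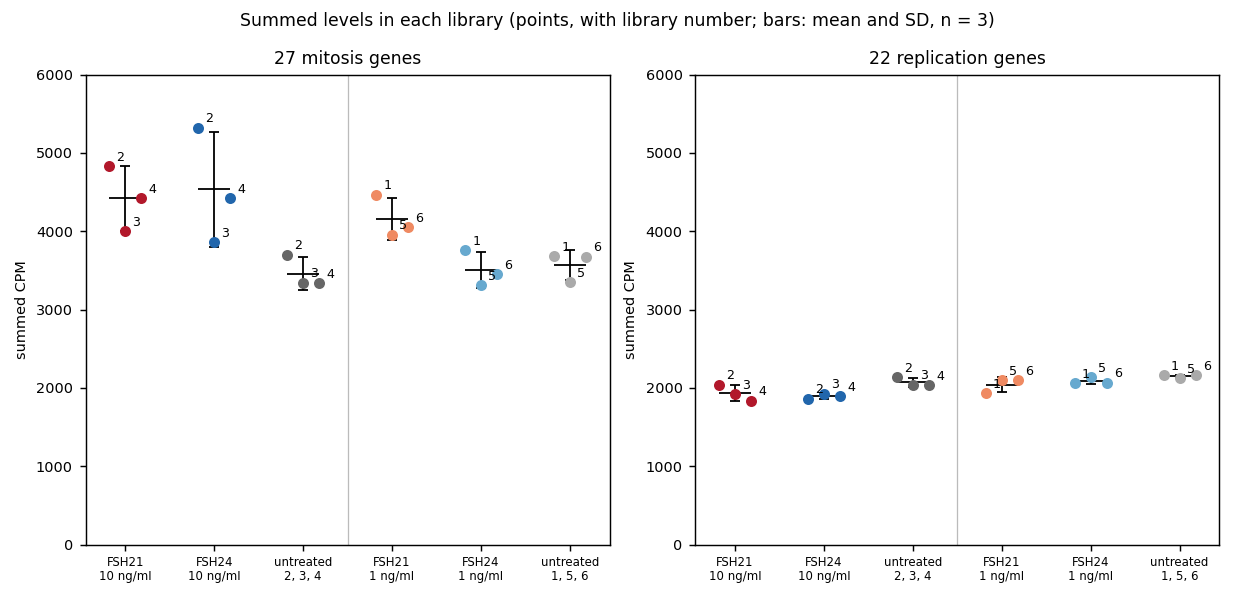
Summed CPM of the 27 mitosis genes (left) and the 22 replication genes (right) in each library, with library numbers and the mean and SD of each group (n = 3). The mitosis sum is 3858 CPM or more in all libraries with 10 ng/ml and in the FSH21 libraries at 1 ng/ml, and at most 3754 CPM in all others, while the replication sums lie between 1838 and 2163 CPM.

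Genes of the same processes outside the 49 were read from lists that were also chosen with earlier results of these data known. Of 69 other mitosis genes, 23 rose and 0 fell with FSH21 at 10 ng/ml, and likewise 23 rose and 0 fell with FSH24, with medians of 0.26 and 0.27, where 5.96% and 5.12% of all genes rose. Those with the largest changes included Pbk, a mitotic kinase, at 45.9 ± 9.81 CPM with FSH21 against 25.0 ± 5.16 CPM without FSH (SD, n = 3), and Cdc25c, the phosphatase that activates CDK1, at 15.5 ± 4.78 CPM with FSH24 against 8.57 ± 1.35 CPM without FSH. Hmmr, a spindle protein, Cdca3, a trigger of mitotic entry, and Ckap5, a microtubule polymerase, rose with FSH21 by 0.72 ± 0.17, 0.71 ± 0.12 and 0.59 ± 0.07, and Cep55, which acts in abscission, rose with FSH24 by 0.67 ± 0.15. Of 51 other replication genes, 0 rose and 2 fell with each form, with medians of -0.06 with FSH21 and -0.10 with FSH24. That is near the 4.21% and 3.3% of all genes that fell, so the count says nothing particular of these genes. Lig1, the ligase of Okazaki fragments, fell with both, by 0.23 ± 0.07 with FSH21 and 0.24 ± 0.07 with FSH24. Rnaseh2a, a subunit of ribonuclease H2, fell with FSH21, by 0.29 ± 0.09. Of 32 regulators of G1, 5 rose and 2 fell with FSH21 and 3 rose and 0 fell with FSH24, in lists where the shares of all genes are as above. Those that rose with both were Cdkn2c, an inhibitor of CDK4 and CDK6, by 0.62 ± 0.16 with each form, E2f7, a repressor of E2F targets, by 0.43 ± 0.10 with FSH21 and 0.33 ± 0.10 with FSH24, and Rbl1, the pocket protein p107, by 0.36 ± 0.07 and 0.31 ± 0.07. Cdkn1a and Cdkn1b, the CDK inhibitors p21 and p27, rose with FSH21, by 0.61 ± 0.18 and 0.29 ± 0.09, and Rbl2, the pocket protein p130, and E2f6, a repressor, fell with it, by 0.24 ± 0.06 and 0.28 ± 0.09. At 1 ng/ml 0 genes of these 3 lists were called with either form by edgeR's test. Of the 69 other mitosis genes, 19 were higher with FSH21 and 3 with FSH24 at an unadjusted p under 0.05 there, where 4.2% and 3.23% of all genes were, so the FSH24 count is near that of all genes.

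Levels of the members differed widely. Per kilobase of exon, untreated follicles held the most Uhrf1, 126 CPM per kb, then Bub1b at 71.8, Plk1 at 59.5, Smc4 at 50.2 and Mcm6 at 41.9 CPM per kb. The least were Ccne1 at 4.53, Cenpa at 5.34 and Pola1 at 5.76 CPM per kb. The length used merges all annotated exons of a gene, 5860 bases for Cenpa, and can exceed that of the transcript present. The order therefore depends on the annotation as well as on the transcript level. Counting was uncertain for some members. Exons of 15 members overlap another gene in GENCODE M21, among them Ube2c with Tnnc2, Ccna2 with Exosc9, Cdc20 with Elovl1, Nusap1 with Oip5 and Mcm7 with Cops6 and Ap4m1, all on opposite strands, and the use of strand in counting was not given in the sources used here. Gins2 overlaps Gse1 on the opposite strand over 2758 of its 4097 exon bases. On the same strand, Ncapd2 overlaps Scarna10 and Gm28967, Top2a overlaps Gm23451, and Mcm7 overlaps Mir25 and Mir93. Rows named as pseudogenes exist for 4 members; Pcna-ps2 held 19.5 CPM on average beside Pcna at 76.3 CPM, and Ccnb2-ps held 2.14 CPM beside Ccnb2 at 74.5 CPM.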

How the data were processed

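Follicle RNA was sequenced from NuGEN Universal Plus mRNA-seq libraries, per the labels' protocols. The 72 samples are 18 libraries on 4 lanes each, and the deposited table has 1 column of expected counts per library, as its RSEM column names show. The tools listed in the submitters' processing notes are STAR 2.7, bcl2fastq and FastQC, and the build is mm10. The RSEM version, annotation and strand setting are not given in the sources used here. The expected counts deposited by the authors had fractions in 33.9% of their values above 0 and were rounded. Of 36282 genes with a count, 18727 passed edgeR's filter by group (minimum count 10). All 18 libraries entered one edgeR 4.0.16 quasi-likelihood fit (R 4.3.3, limma 3.58.1, TMM scaling, robust), with Benjamini-Hochberg adjustment over all genes tested, called under 0.05. Standard errors were derived from the fold change and its F statistic. DESeq2 1.42.0, other scalings, no filter, a block and left-out libraries were alternatives. The fit was tested on simulated data. Libraries numbered alike were compared for pairing: the correlations of their deviations from the group means were 0.193, 0.206 and 0.126 for FSH21 at 10 ng/ml against untreated cultures, and every other comparison had at least 1 pair under 0.1. All the correlations were positive, the highest being 0.235, between the FSH21 and FSH24 libraries numbered 2. No 2 libraries of a group agreed within sampling noise, since differences exceeded Poisson variance by 9.29 to 25.1 times. The text gives every library for up to 3 members per role, and other members by called fold changes, ranges and counts. The members and lists were chosen with earlier results of these data known. One gene of the wider replication list is not reported here by name.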

Additional observations from a re-analysis of the deposited data

Results flagged for a closer look

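The effect of FSH24 differed between doses for 2 genes, tested as the effect at 10 ng/ml minus the effect at 1 ng/ml. For Smc2 the difference was 0.48 on the log2 scale (adjusted p = 0.0327, edgeR's quasi-likelihood test) and for Mki67 it was 0.73 (adjusted p = 0.0367). Dose and library number go together in this design, so the dose and the set of cultures cannot be told apart.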

How the results depend on the processing

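No alternative reversed any of the 33 called fold changes: 288 values kept their side of the threshold and 153 no longer passed. Uncalled mitosis genes near 0, such as Bub1b and Ttk, did turn negative under some alternatives. With FSH21 at 10 ng/ml, 15 of the 49 genes were called, 8 with no filter on low counts, 25 with the replicate block and 7 to 17 with 1 library left out. With FSH24 at 10 ng/ml, 16 were called, 26 with the block (8.02% of all genes higher and 5.58% lower there, against 5.12% and 3.3%), 9 with only the groups compared, 5 with no library numbered 2 and 6 to 23 with 1 library left out. With FSH21 at 1 ng/ml 0 were called, against 8 with the block, all higher (0.79% of all genes higher and 0.417% lower). Between FSH21 and FSH24 at 1 ng/ml 0 were called, against 2 with DESeq2 (204 of all genes) and 6 with the block, all higher (0.587% of all genes higher and 0.358% lower). For the dose difference of FSH24, 2 were called, 1 with library totals or with no filter, 8 with DESeq2 (816 of all genes), 15 with the block (3.62% of all genes higher and 2.69% lower), 0 with only the groups compared or no library numbered 2, and 0 to 10 with 1 library left out. The cause of these shifts was not tested. The settings without libraries numbered 2 or 1 were chosen after seeing the data. Deviations of libraries numbered alike were positively correlated in every comparison, though only FSH21 at 10 ng/ml against untreated cultures had no pair under 0.1. The untreated sets could not be fitted with the block because no number occurs in both. Depth was similar across libraries, and 3 libraries a group limit the precision.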
